A study of Rattus norvegicus with 20 samples.

Results

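Line-A and Line-C are rat lines bred from crosses between Long-Evans (*Turku/AB*) (L-E) and Han/Wistar (*Kuopio*) (H/W) rats. Line-A carries the mutant *Ahr* allele of H/W, and Line-C carries the wild-type allele, as L-E does. The comparison used 8 of the 20 arrays of the series, 1 for each of 4 Line-A and 4 Line-C rats, and every ProbeSet of the Affymetrix RAE230A array was described across them. All rats were males of 10 to 12 weeks that had received corn oil by gavage 19 hours earlier, so the corn oil is shared by both lines and no rat had received dioxin. The 4 rats of each line were separate animals and no RNA was pooled. The parental arrays, 4 of H/W and 4 of L-E under the same vehicle, age and sex, are used below to place the lines. They also enter the fit, as do the 4 arrays of Sprague-Dawley (S-D) rats, which are not described. All 20 arrays thus set the residual variance behind the calls between the lines. L-E is in-bred and H/W is random-bred, kept as a closed colony. The lines also share a mixed L-E and H/W background whose other loci were not typed in the data used here, so the *Ahr* allele and any other locus fixed differently in the lines cannot be told apart.

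The aryl hydrocarbon receptor (AHR) is a ligand-activated transcription factor. It rests in the cytosol with HSP90 and the co-chaperone p23, and after binding a ligand such as dioxin it moves to the nucleus, pairs with ARNT and binds DNA at short elements with the core GCGTG. In liver its best known targets are *Cyp1a1*, *Cyp1a2*, *Nqo1* and *Tiparp*, and H/W rats owe much of their resistance to dioxin to an altered transactivation domain of the receptor. The rats here were unexposed, and the values are basal levels.

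Values are log2 signals per ProbeSet, in which a difference of 1 is a doubling. A mean of at least 4 was taken as expressed, and 7221 of 15923 ProbeSets reached it over the 8 arrays. A ProbeSet was called where the Line-A minus Line-C difference passed a false-discovery rate (FDR) of 5% over all ProbeSets. Of the 15923, 222 were called (1.39%), 120 higher in Line-A (0.754%) and 102 lower (0.641%). At 1% FDR there were 85 (0.534%). In 212 of the 222 the 4 signals of the lines did not overlap, as against 5.14% of all ProbeSets. Of the called differences 79 were under 1.5-fold, 71 were at least 2-fold, 30 of them higher and 41 lower in Line-A, and 14 exceeded a log2 difference of 3. A mean of at least 4 over the 8 arrays was reached by 209 of the 222, and in 7 of the 222 both line means lay under 4. Of the called ProbeSets 179 carry a single gene symbol, for 164 genes, and 43 do not. Among the called ProbeSets of the genes named below, 53 of 92 were also called in each of the 8 fits that left out 1 line array. With 1 ProbeSet per gene, 146 of 5417 expressed genes were called (2.7%), 76 higher in Line-A (1.4%) and 70 lower (1.29%). Counts of called members of the gene lists below stand beside these shares. Where the mean of 1 line lay under 4, the fold is given as a lower bound, with every signal under 4 set to 4.

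**Figure D1:**
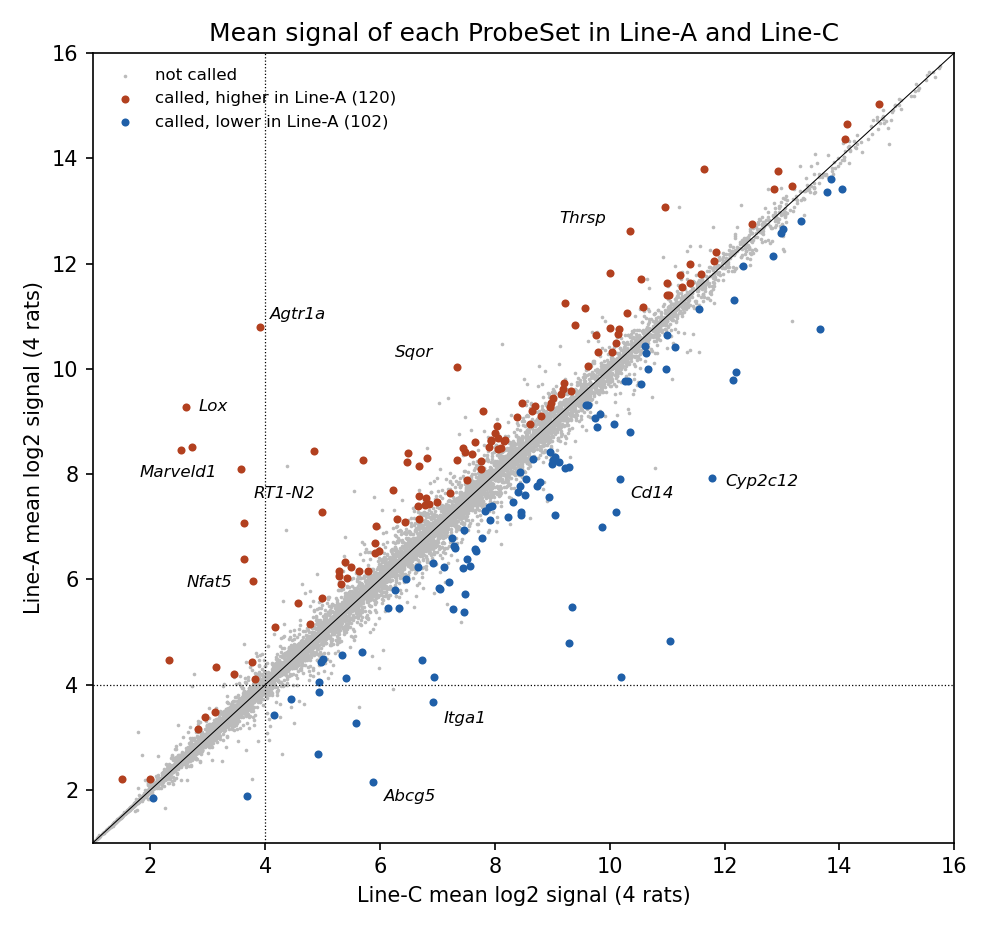
Mean log2 signal of every ProbeSet in Line-C (x axis) against Line-A (y axis), 4 rats each; dotted lines mark the expression limit of 4 and the solid line marks equality. The 120 ProbeSets called higher in Line-A lie above the line of equality, the 102 called lower lie below it, and a few, *Agtr1a*, *Marveld1* and *Lox* among them, pass from under the limit in Line-C to clear expression in Line-A.

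The lines carry different alleles of the receptor, so its own genes and its target battery are given first. Both *Ahr* ProbeSets lay under the expression limit in every rat of both lines. ProbeSet 1369147_at read 3.14, 3.11, 3.10 and 3.20 in the 4 Line-A rats and 3.09, 3.13, 3.17 and 3.15 in the 4 Line-C rats, and 1369146_a_at read 2.68, 2.91, 2.67 and 2.70 in Line-A against 2.60, 2.62, 2.68 and 2.68 in Line-C, so the array gives no level of *Ahr* in either line. The *Arnt* ProbeSet was as low, at 3.01 and 3.03. The chaperone genes were abundant and close to equal: *Hsp90ab1*, the HSP90 beta chain, measured 12.60 ± 0.20 against 12.61 ± 0.12 (SD, n = 4 each, as for all means here), and *Ptges3*, which encodes p23, 11.27 ± 0.12 against 11.28 ± 0.11. Their log2 differences were -0.01 ± 0.11 and -0.01 ± 0.08 (SE). *Ncoa1*, a coactivator of nuclear receptors, measured 6.69 ± 0.24 against 7.33 ± 0.32 with an adjusted p of 0.155, short of the threshold although the rats did not overlap.

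*Tiparp*, a mono-ADP-ribosyltransferase that AHR induces and that in turn limits AHR activity, was the one called of the 4 expressed genes of the receptor complex and its regulators. Its signals were 6.34, 5.70, 6.34 and 6.54 in the 4 Line-A rats and 5.62, 5.65, 5.65 and 5.06 in the 4 Line-C rats. The lowest Line-A rat, at 5.70, stood just above the highest Line-C rats, at 5.65. The difference was 0.73 ± 0.17, or 1.66-fold, with an adjusted p of 0.043 by limma, close to the threshold. The call was lost in 7 of the 8 fits that each left out 1 line array, all but that without Line-A replicate 2, with adjusted p up to 0.152. Line-C matched both parents, which had 5.50 (H/W) and 5.52 (L-E), so the mean farthest from the other groups was that of Line-A. Its promoter is shown because *Tiparp* is the receptor target that was called. The 250 bases before the start of *Tiparp* (GRCr8, chr2:152063519-152063768, plus strand, from RefSeq) are printed 5′ to 3′, with GCGTG read on either strand in capitals:
Tiparp: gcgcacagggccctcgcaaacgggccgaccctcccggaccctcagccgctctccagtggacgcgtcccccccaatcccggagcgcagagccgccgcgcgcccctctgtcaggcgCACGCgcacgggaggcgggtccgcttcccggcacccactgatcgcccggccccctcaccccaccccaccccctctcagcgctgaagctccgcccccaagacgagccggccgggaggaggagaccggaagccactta
The core occurs 1 time there, on the opposite strand as CACGC. It is a common string: it occurred in 46.4% of the 4597 promoters of expressed genes of this array that RefSeq gave, in 38.8% of the 139 promoters of called genes, and in 27.2% of all 27457 promoters in the table.

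The AHR target battery, a list that leaves *Tiparp* with the receptor's regulators, held no called gene. Of 17 battery genes on the array 13 were expressed, 0 passed 5% FDR and 2 had an unadjusted limma p under 0.05, and their median difference was -0.06, against -0.000801 over all 5417 expressed genes, of which 2.7% were called (1.4% higher and 1.29% lower in Line-A). *Cyp1a2*, the constitutive hepatic member of the family and 1 of the strongest signals on the array, read 14.32, 14.18, 14.37 and 14.35 in the 4 Line-A rats and 14.28, 14.30, 14.46 and 14.47 in the 4 Line-C rats. The lines overlapped, and the difference was -0.07 ± 0.10. *Cyp1a1*, the classical inducible target, ranged more widely within each line than between them, with 2.68, 3.61, 5.76 and 6.17 in Line-A against 5.31, 2.98, 4.33 and 3.04 in Line-C and an SE of 1.10 for a difference of 0.64. *Nqo1*, a quinone reductase, read 9.83, 8.77, 8.24 and 8.21 in Line-A against 8.80, 8.41, 8.30 and 9.73 in Line-C, so the lines spanned the same range, and H/W lay lower than both, at 5.46. *Ugdh*, which makes the donor for glucuronidation, had 10.74 ± 0.14 against 10.42 ± 0.16, adjusted p = 0.387. The largest difference of the battery was that of *Scd*, 1.87 with an adjusted p of 0.208, which is given with the lipogenic genes, and the other 12 expressed members lay between -0.31 and 0.64. *Cyp1b1* and *Aldh3a1* lay under 4 in both lines.

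Many of the largest differences were in genes expressed in 1 line and at or near the limit in the other. *Agtr1a* encodes the type 1a angiotensin II receptor, through which angiotensin raises blood pressure. Its ProbeSet 1384240_at read 11.02, 10.58, 10.79 and 10.76 in the 4 Line-A rats and 3.96, 4.10, 3.96 and 3.59 in the 4 Line-C rats, and 1369291_at read 8.85, 8.30, 8.61 and 8.28 in Line-A against 2.70, 2.74, 2.73 and 2.73 in Line-C. Every Line-A rat was far above every Line-C rat on both ProbeSets. The line means differed by at least 109-fold and 22.8-fold, with adjusted p of 1.98e-14 and 1.30e-15. The parents split the same way, with means on 1384240_at of 11.12 (H/W) and 3.54 (L-E), so Line-A had the H/W state and Line-C the L-E state. None of the other 4 expressed genes of the renin-angiotensin system was called. *Marveld1*, a MARVEL-domain membrane protein, had the same arrangement on 1372342_at, with 6.91, 8.67, 9.0 and 9.27 in Line-A against 2.39, 2.90, 2.32 and 2.50 in Line-C, at least 22-fold (adjusted p = 3.99e-07), and parental means of 6.89 (H/W) and 2.30 (L-E).

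*Lox*, lysyl oxidase, which cross-links collagen and elastin, was high in Line-A and under the limit in Line-C. ProbeSet 1368171_at read 8.71, 10.07, 9.27 and 9.07 in the 4 Line-A rats and 2.39, 2.45, 3.12 and 2.48 in the 4 Line-C rats, and 1368172_a_at 6.39, 7.71, 7.31 and 6.84 in Line-A against 3.46, 3.70, 3.69 and 3.67 in Line-C, at least 38.8-fold and 8.35-fold (adjusted p = 0.001 and 0.00178). Here the parental means lay between the lines, at 4.74 (H/W) and 6.50 (L-E) on the first ProbeSet. The H/W rats were not alike, with 5.86, 2.42, 8.23 and 2.45, of which 8.23 is that of replicate 3. The count of parental calls given below turned on that array. Without it the adjusted p between H/W and L-E went from 0.315 to 0.0163 on this ProbeSet. Of 18 expressed collagen and cross-linking genes *Lox* was called higher and *Plod1*, a lysyl hydroxylase of collagen, lower (8.33 ± 0.22 against 9.04 ± 0.10, adjusted p = 0.0207), and the median difference was -0.07. Of the 12 expressed markers of stellate cells and fibroblasts 0 were called by limma and 2 had an unadjusted p under 0.05, with 10 of 12 differences negative and a median of -0.24.

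Other genes were at or under the limit in Line-C. *RT1-N2*, from the class Ib region of the rat major histocompatibility complex (MHC), read 7.97, 8.41, 7.92 and 8.08 in the 4 Line-A rats and 3.52, 3.58, 3.62 and 3.61 in the 4 Line-C rats, at least 17.1-fold higher in Line-A (adjusted p = 0.00062), while both parents expressed it at 8.03 (H/W) and 9.22 (L-E). Line-C alone of the 4 groups thus lay under the limit. RT1 genes are near-identical copies of each other, so which of them the ProbeSet reads is uncertain. *Nfat5*, the transcription factor of the osmotic stress response, showed a like state on 1398421_at, at 5.97 ± 0.16 against 3.79 ± 0.45 and with 6.05 (H/W) and 6.19 (L-E), but its brighter ProbeSet 1372772_at had 6.35 ± 0.04 against 6.42 ± 0.15 and was not called. *Rab14*, a GTPase of endosome traffic, was higher on 3 ProbeSets, by 2.76, 1.06 and 0.78, each called, and measured 11.26 ± 0.51 against 11.82 ± 0.20 on the brightest, 1375687_at, which was not called. *Sqor*, the mitochondrial sulfide quinone oxidoreductase that oxidises hydrogen sulfide, read 10.25, 9.96, 10.01 and 9.89 in the 4 Line-A rats and 7.12, 7.31, 7.37 and 7.56 in the 4 Line-C rats, 6.44-fold higher in Line-A (adjusted p = 5.39e-10), with 10.48 (H/W) and 7.01 (L-E).

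In the other direction, a pair of ProbeSets to which no gene symbol was given had the largest differences. 1370988_at read 4.84, 4.82, 4.79 and 4.84 in the 4 Line-A rats and 10.96, 11.63, 10.62 and 11.02 in the 4 Line-C rats, and 1389990_at 3.97, 4.20, 4.19 and 4.24 in Line-A against 10.21, 10.54, 9.86 and 10.16 in Line-C, 75.1-fold and 65.9-fold lower in Line-A (adjusted p = 1.06e-10 and 2.31e-12). The parents split as they did for *Agtr1a* and the lines the other way round: on 1370988_at H/W had 11.27 and L-E 4.77, so Line-A had the L-E state and Line-C the H/W state. *Itga1*, the collagen-binding integrin alpha 1 chain, showed the same crossing. It read 3.62, 3.79, 3.59 and 3.66 in the 4 Line-A rats and 7.19, 7.05, 7.24 and 6.23 in the 4 Line-C rats, at least 7.62-fold lower in Line-A (adjusted p = 0.000246), with 6.83 (H/W) and 4.62 (L-E). *Creg1*, a secreted glycoprotein of the endosome and lysosome, did so on 1381968_at, with 9.47, 10.06, 10.23 and 10.02 in Line-A against 12.40, 12.03, 12.24 and 12.16 in Line-C and parents at 12.35 (H/W) and 9.79 (L-E), and was called lower on its other ProbeSet as well (8.96 ± 0.38 against 10.07 ± 0.15). *Letm1*, a cation exchanger of the inner mitochondrial membrane, measured 5.37 ± 0.24 against 7.47 ± 0.30 on 1375289_at and 7.38 ± 0.27 against 7.55 ± 0.06 on 1371739_at, of which the first was called. *Dsc2*, a desmosomal cadherin, was lower at 6.99 ± 0.63 against 9.87 ± 0.21, while both parents were near Line-C at 9.38 (H/W) and 10.27 (L-E). *Selenow*, a small selenoprotein, was lower at 4.47 ± 0.17 against 6.74 ± 0.27, with both parents between the lines at 5.12 (H/W) and 5.14 (L-E).

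**Figure D2:**
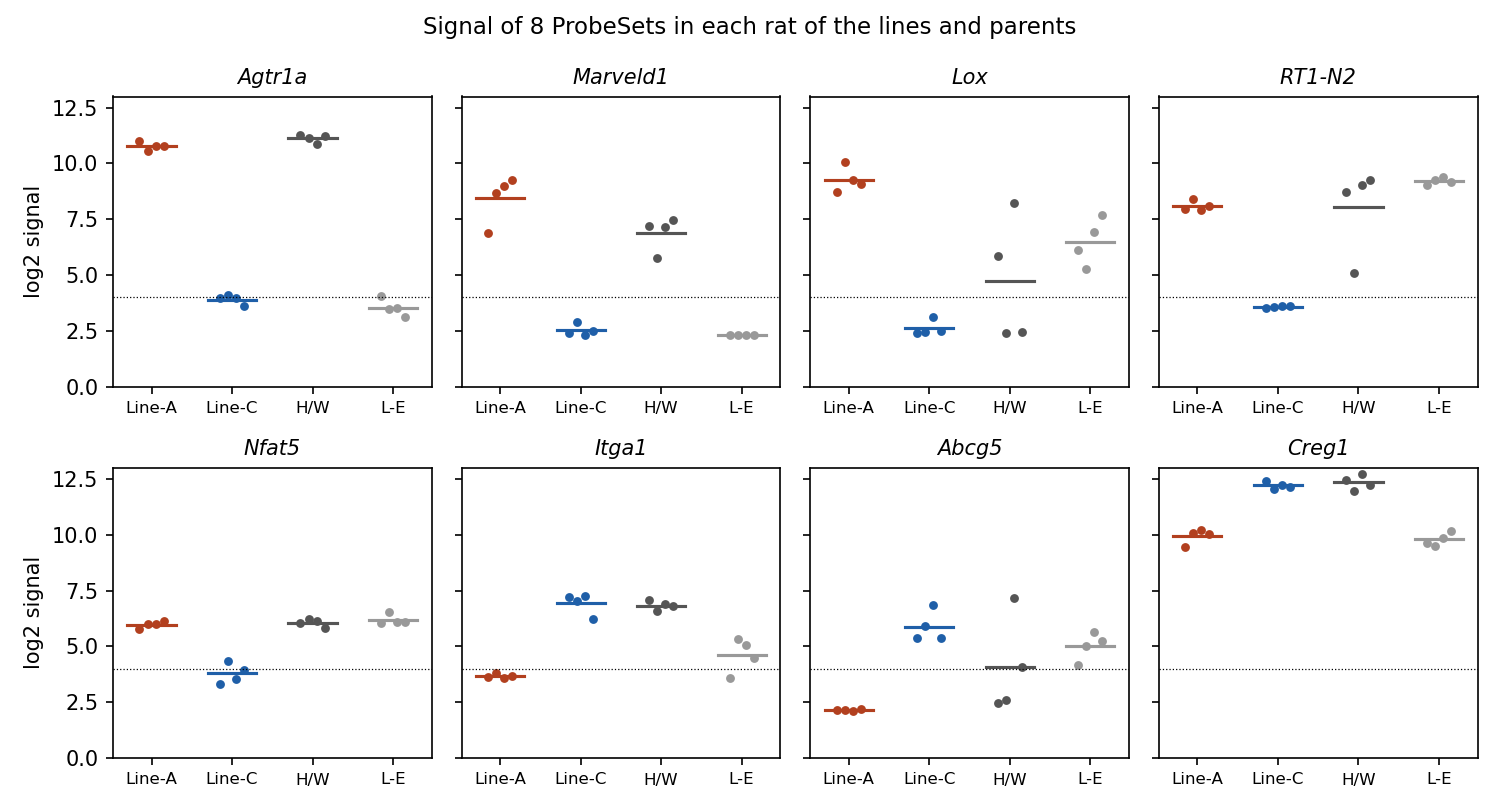
Log2 signal of 8 ProbeSets in each of the 4 rats of Line-A, Line-C, H/W and L-E; points are rats, bars are means of 4, and the dotted line is the expression limit of 4. *Agtr1a* and *Marveld1* follow H/W in Line-A and L-E in Line-C, *Itga1* and *Creg1* do the reverse, and *RT1-N2* and *Nfat5* are low in Line-C alone.

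The ProbeSets of 1 gene did not always agree. Of 30 called genes with more than 1 measured ProbeSet, 8 (*Agtr1a*, *Creg1*, *Crot*, *Cyp51*, *Fasn*, *Igfbp3*, *Lox* and *Thrsp*) were called on each of them in the same direction. For 21 some ProbeSets were called and others not, as for *Nfat5*, *Letm1* and *Rab14*, and for 1, *Lysmd4*, of which little is known, the ProbeSets were called in opposite directions (-0.72 and 0.75). Among the genes described below, a ProbeSet that was not called measured -0.04 for *Selenop*, and is far the brighter of its pair (15.34 ± 0.06 against 15.38 ± 0.08), 0.26 for *Cyb5b*, -0.15 for *Slco1b2* and 0.32 for *Spink1*.

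With the brightest ProbeSet standing for each gene, called genes of sterol synthesis had less signal in Line-A, and called genes of fatty acid synthesis had more. *Sc5d*, of sterol synthesis, was called higher on its dimmer ProbeSet, as given below. The liver makes cholesterol through the mevalonate pathway, whose genes are controlled together by SREBP2, and makes fatty acids through genes that respond to insulin by way of SREBP1c and ChREBP. All 17 cholesterol synthesis genes on the array were expressed. 4 were called lower in Line-A and 0 higher, as against 1.29% and 1.4% of all expressed genes. Of the 17 differences 16 were negative, and the median was -0.62, against -0.000801 over all expressed genes. In 12 of the 17 the rats of the lines did not overlap, as against 10.3% of all expressed genes. The list was chosen with earlier results of these data known, so these contrasts are a description and not independent support. Averaged over the 17 genes, the signal per rat lay between 8.80 and 9.21 for Line-A and between 9.57 and 9.79 in Line-C. Without 1 of the 8 arrays in turn, between 0 and 1 of the genes were called and the median lay between -0.69 and -0.54.

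*Idi1*, the isopentenyl diphosphate isomerase early in the pathway, read 9.07, 8.38, 9.05 and 8.69 in the 4 Line-A rats and 10.10, 10.14, 10.20 and 10.99 in the 4 Line-C rats. Its highest Line-A rat was 9.07 and its lowest Line-C rat 10.10, a difference of means of -1.56 ± 0.35 (adjusted p = 0.0331). Its other ProbeSet, 1388872_at, measured 7.49 ± 0.36 against 8.90 ± 0.32 with an adjusted p of 0.0683. *Acat2*, the cytosolic thiolase that begins the pathway, read 6.97, 7.58, 7.37 and 6.97 in Line-A against 8.14, 8.39, 8.93 and 8.35 in Line-C (2.34-fold lower, adjusted p = 0.0402). *Cyp51*, the lanosterol 14-alpha-demethylase, was lower on both ProbeSets, with 11.06, 11.23, 11.49 and 11.44 in Line-A against 12.01, 12.19, 12.23 and 12.21 in Line-C on 1367979_s_at (adjusted p = 0.0242) and a difference of -0.83 ± 0.17 on 1387020_at. *Ebp*, the sterol isomerase, was lower at 10.41 ± 0.14 against 11.13 ± 0.17 (adjusted p = 0.0419). *Sqle*, squalene epoxidase, had 7.17 ± 0.39 against 8.62 ± 0.38 and *Msmo1*, a sterol 4-methyl oxidase, 10.35 ± 0.37 against 11.39 ± 0.22, with adjusted p of 0.074 and 0.0921. *Sc5d*, the lathosterol oxidase, gave no single direction: ProbeSet 1389111_at was called higher by 0.53 and the brighter 1387926_at measured -0.31, adjusted p = 0.28. In *Idi1*, *Cyp51* and *Sqle* the parents lay with Line-C, the *Idi1* means being 10.40 (H/W) and 10.43 (L-E).

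The promoters of *Idi1* and *Cyp51* are shown to set the called sterol genes beside *Tiparp*. Both lie in GRCr8, *Idi1* at chr17:66547525-66547774 on the minus strand and *Cyp51* at chr4:30991443-30991692 on the plus strand, from RefSeq, printed 5′ to 3′ up to the start, with GCGTG and the CCAAT box of the factor NF-Y, each on either strand, in capitals:
Idi1: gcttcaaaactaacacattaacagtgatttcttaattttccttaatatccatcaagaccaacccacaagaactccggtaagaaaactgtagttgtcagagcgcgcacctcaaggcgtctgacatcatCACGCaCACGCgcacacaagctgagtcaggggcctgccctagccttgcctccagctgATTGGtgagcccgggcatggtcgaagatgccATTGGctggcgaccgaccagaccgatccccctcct
Cyp51: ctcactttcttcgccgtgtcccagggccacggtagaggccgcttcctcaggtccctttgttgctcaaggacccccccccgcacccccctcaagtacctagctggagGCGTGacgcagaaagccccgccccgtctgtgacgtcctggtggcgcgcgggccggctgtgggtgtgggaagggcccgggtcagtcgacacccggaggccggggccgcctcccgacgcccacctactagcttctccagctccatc
The *Idi1* promoter held 2 copies of the AHR core and 2 of the CCAAT box, and that of *Cyp51* held 1 core and 0 boxes. The box was not marked or counted in the *Tiparp* sequence above, which also holds the letters CCAAT. A match of letters is a description and not a bound site. Among the 14 cholesterol synthesis genes with a promoter in the table, 11 held the box and 8 the core. Among the 14 such lipogenic genes, whose called members were higher in Line-A, 10 held the box and 5 the core. The box occurred in 37% of promoters of expressed genes, 47.5% of those of called genes and 34.3% of all promoters.

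A gene pair of sterol export was also called lower. ABCG5 and ABCG8 are the partners of 1 transporter that pumps sterols into bile. *Abcg5* read 2.13, 2.16, 2.11 and 2.20 in the 4 Line-A rats and 5.36, 5.92, 6.84 and 5.38 in the 4 Line-C rats, under the limit in every Line-A rat and above it in every Line-C rat, at least 3.67-fold lower (adjusted p = 0.0164), and *Abcg8* 2.58, 2.87, 2.36 and 2.89 in Line-A against 4.71, 4.96, 5.82 and 4.20 in Line-C, at least 1.89-fold lower (adjusted p = 0.00106). Without Line-C replicate 3, which was the highest for both, *Abcg5* had an adjusted p of 0.0552. The genes stand head to head, with their starts 206 bases apart, and the 205 bases between the starts (GRCr8, chr6:15717731-15717935, from RefSeq, written on the plus strand, toward *Abcg5*) are shown because both genes share them, with CCAAT on either strand in capitals:
Abcg5 and Abcg8: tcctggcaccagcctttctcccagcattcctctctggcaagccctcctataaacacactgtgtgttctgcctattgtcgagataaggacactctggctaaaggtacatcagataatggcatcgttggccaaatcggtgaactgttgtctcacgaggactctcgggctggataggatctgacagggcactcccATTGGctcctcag
The stretch held 1 CCAAT box, written as ATTGG, and 0 copies of the AHR core. The H/W rats varied widely for *Abcg5*, with 2.45, 2.61, 7.18 and 4.07, of which 7.18 is again that of replicate 3. Without that array the adjusted p of *Abcg5* between H/W and L-E went from 0.419 to 0.0133. Of 15 expressed genes of sterol sensing, uptake and transport *Abcg5* was the one called lower, and *Apoa2*, the second apolipoprotein of high-density lipoprotein, the one called higher (15.04 ± 0.06 against 14.69 ± 0.09, adjusted p = 0.00152). Among 19 bile acid genes the basolateral uptake carrier *Slco1b2* was called, lower at 11.95 ± 0.14 against 12.33 ± 0.10 (adjusted p = 0.0318), and the rate-limiting enzyme *Cyp7a1* ranged from 7.76 to 10.40 in Line-A and from 7.25 to 10.40 in Line-C, with a difference of -0.03 ± 0.72.

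Of fatty acid synthesis, *Thrsp* and *Fasn* were called higher in Line-A. *Thrsp*, also called Spot 14, a nuclear regulator of lipogenesis, read 13.40, 14.06, 13.92 and 13.82 in the 4 Line-A rats and 11.67, 12.32, 11.82 and 10.76 in the 4 Line-C rats on 1370150_a_at. The lowest Line-A rat exceeded the highest Line-C rat on each of its 3 ProbeSets, with differences of 2.16, 2.13 and 2.26 and adjusted p of 0.01, 0.0115 and 0.00839. *Fasn*, fatty acid synthase, read 11.52, 12.30, 11.91 and 11.54 in Line-A against 10.32, 10.63, 9.66 and 9.46 in Line-C on 1367708_a_at and differed by 1.80 and 2.03 on its ProbeSets, 3.49-fold and 4.09-fold (adjusted p = 0.0292 and 0.0384). *Scd*, stearoyl-CoA desaturase, measured 13.08 ± 0.62 against 11.21 ± 0.86 and *Acly*, ATP citrate lyase, 12.13 ± 0.62 against 10.93 ± 0.50, with adjusted p of 0.208 and 0.151. Of 18 expressed lipogenic genes 2 were called higher and 0 lower, as against 1.4% and 1.29% of all expressed genes. In this list, chosen with earlier results of these data known, 11 of 18 differences were positive and the median was 0.40. Without 1 of the 8 arrays in turn, between 1 and 4 were called (4 without Line-A replicate 1, and 1 without Line-A replicate 2, 3 or 4 or Line-C replicate 3 or 4) and the median lay between 0.25 and 0.46. *Plin2*, which coats lipid droplets, and *Fitm2*, which takes part in forming them, were higher by 0.41 and 0.86 (adjusted p = 0.0154 and 0.0121), and the glucagon receptor gene *Gcgr* by 0.72 (adjusted p = 0.0287).

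**Figure D3:**
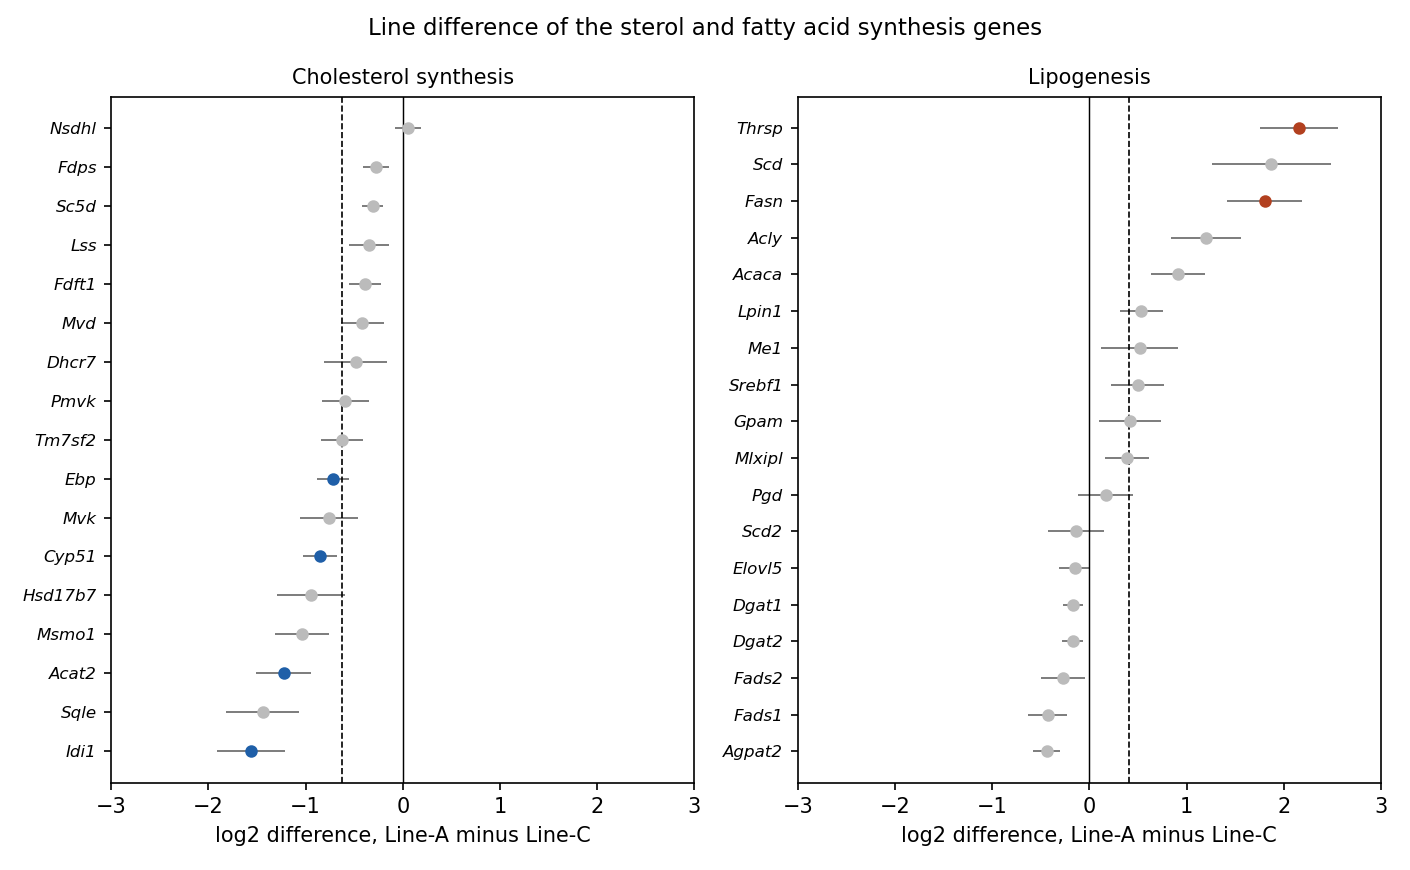
Line-A minus Line-C log2 difference of each expressed gene of cholesterol synthesis (17 genes) and lipogenesis (18 genes), 1 ProbeSet per gene; bars are SE, coloured points passed 5% FDR, and the dashed line is the median of the list. The medians lie at -0.62 and 0.40, on opposite sides of 0.

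Fatty acid oxidation stood closer to equality. Of 28 expressed genes 1 was called, as against 2.7% of all expressed genes. This was *Acaa2*, the mitochondrial thiolase of beta-oxidation, lower in Line-A at 12.15 ± 0.08 against 12.85 ± 0.16 (adjusted p = 0.00464). The median difference of the list was -0.12. Outside that list *Crot*, the peroxisomal carnitine octanoyltransferase, was called lower on both ProbeSets, but its Line-A rats did not form 1 group: 1368426_at read 9.94, 6.03, 7.11 and 6.07 in the 4 Line-A rats and 9.78, 10.55, 10.15 and 9.98 in the 4 Line-C rats. Replicate 1 of Line-A was at the Line-C level and the other 3 were 6.03 to 7.11. The call stood without replicate 1 and was lost in 6 of the other fits that left out 1 array.

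The called genes of the respiratory chain were higher in Line-A. The respiratory chain and ATP synthase pass electrons to oxygen and make ATP. Of 41 expressed subunits 31 had a positive difference, with a median of 0.09, and 3 were called, all higher: *Cox8a* of complex IV by 0.37, *Ndufv2* of complex I by 0.36 and *Uqcrq* of complex III by 0.24 (adjusted p = 0.0099, 0.0401 and 0.0174). Of all expressed genes 1.4% were called higher, and the list was chosen with earlier results of these data known. Without 1 of the 8 arrays in turn between 1 and 3 of the subunits were called, 1 without Line-A replicate 4 or Line-C replicate 2 or 4. The mean signal per rat over the 41 lay between 10.65 and 10.73 for Line-A and between 10.52 and 10.61 in Line-C. *Bckdhb*, the E1 beta chain of the complex that commits branched-chain amino acids to breakdown, was also higher. It read 11.19, 11.23, 11.14 and 11.03 in the 4 Line-A rats and 9.60, 9.58, 9.60 and 9.51 in the 4 Line-C rats, 2.98-fold higher in Line-A (adjusted p = 6.40e-06), with parents at 10.58 (H/W) and 9.29 (L-E). No list of amino acid breakdown was set, and apart from *Haao* the genes that follow were picked with their values in view. *Hibadh*, of valine breakdown, was higher by 0.21, *Acat1*, the mitochondrial thiolase of isoleucine breakdown and ketone bodies, by 0.59, and *Mcee*, the methylmalonyl-CoA epimerase, by 0.38 (adjusted p = 0.0176, 0.00171 and 0.0278). Of tryptophan breakdown *Haao* was higher by 0.56 and *Aadat* by 0.63 (adjusted p = 0.000277 and 0.0102).

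*Sirt3*, the main deacetylase of the mitochondrial matrix, read 7.07, 7.79, 7.25 and 6.99 in the 4 Line-A rats and 5.20, 4.79, 5.17 and 4.78 in the 4 Line-C rats, 4.88-fold higher in Line-A (adjusted p = 3.86e-05). Both parents were nearer Line-A, at 6.43 (H/W) and 7.29 (L-E), and the line difference exceeded the parents' H/W minus L-E difference by 3.15 (adjusted p = 4.16e-05). The mitochondrial ribosomal gene *Mrpl52* was higher by 1.48 on 1388654_at and measured -0.22 on the brighter 1374411_at, which was not called. *Prdx3*, the peroxidase of the matrix, was higher by 0.26 (adjusted p = 0.034). Of 19 genes of glycolysis and gluconeogenesis *Eno1*, enolase 1, was called, higher by 0.38 (adjusted p = 0.0219). As in the respiratory chain most differences of this list were positive, 15 of 19, with a median of 0.12. No cytosolic ribosomal protein gene of 24 was called by limma, 7 had an unadjusted p under 0.05, and 19 of 24 differences were positive, with a median of 0.04.

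All expressed macrophage markers had a negative Line-A minus Line-C difference, and 3 of them passed the test. Kupffer cells are the resident macrophages of the liver sinusoids. Of 13 markers on the array 12 were expressed. All 12 had a negative difference, with a median of -0.51, and in 8 the rats of the lines did not overlap, as against 10.3% of all expressed genes. The 3 called lower stand against 1.29% of all expressed genes. This list too was chosen with earlier results of these data known, so the contrasts are a description. The mean signal per rat over the 12 lay between 7.16 and 7.40 for Line-A and between 7.84 and 8.10 in Line-C, and without 1 of the 8 arrays in turn between 2 and 4 were called. *Cd14*, the co-receptor for bacterial lipopolysaccharide, read 7.97, 7.81, 7.98 and 7.87 in the 4 Line-A rats and 10.18, 10.27, 10.11 and 10.13 in the 4 Line-C rats, with SDs of 0.08 and 0.07. The lines were far apart on it. It was 4.8-fold lower (adjusted p = 0.00074), with parents between the lines at 9.07 (H/W) and 9.76 (L-E). *Lyz2*, the lysozyme of macrophages, read 7.02, 7.76, 6.78 and 7.31 in Line-A against 9.22, 9.28, 8.86 and 8.81 in Line-C, 3.53-fold lower (adjusted p = 0.000109), and both parents were at the Line-C level, 9.11 (H/W) and 9.02 (L-E). *C1qa*, of complement C1q, read 8.60, 8.38, 8.44 and 8.25 in Line-A against 9.07, 9.02, 8.72 and 9.05 in Line-C (adjusted p = 0.0264). *Clec4f*, a lectin found on rat Kupffer cells, measured 9.55 ± 0.06 against 10.18 ± 0.17 (adjusted p = 0.0635), *C1qc* 8.49 ± 0.19 against 8.97 ± 0.16 (adjusted p = 0.158), *Ctss*, cathepsin S, 8.27 ± 0.28 against 8.96 ± 0.29 (adjusted p = 0.0649), and *Csf1r*, the receptor that keeps macrophages alive, 6.09 ± 0.22 against 6.48 ± 0.24 (adjusted p = 0.287). In whole liver, fewer cells of a type and less RNA per cell cannot be told apart. Of the markers of other liver cells, 0 of 7 of sinusoidal endothelium and 0 of 16 of hepatocytes were called by limma (1 and 2 at an unadjusted p under 0.05), with medians of -0.04 and -0.02, and the hepatocyte markers had a mean signal per rat between 13.61 and 13.69 for Line-A and between 13.64 and 13.74 in Line-C. Of the markers of cholangiocytes, B cells, T and NK cells, neutrophils and mast cells only between 1 and 2 per list were expressed, and none was called by limma, with 1 marker of cholangiocytes and 1 of T and NK cells at an unadjusted p under 0.05. The medians were -0.36 for cholangiocytes, with both markers negative, -0.25 for B cells, 0.25 for T and NK cells and 0.04 for neutrophils and mast cells, and -0.24 for the stellate cell and fibroblast markers given above.

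Some genes of the interferon response and of lysosomes were also called. Interferon-stimulated genes are induced together by type I and type II interferon. Of 18 expressed members 3 were called lower, 16 had a negative difference and the median was -0.36. Of all expressed genes 1.29% were called lower, and the list was chosen with earlier results of these data known. Without 1 of the 8 arrays in turn between 1 and 5 were called, 1 without Line-A replicate 2 or 3 or Line-C replicate 2, 3 or 4. *Ifitm3*, which blocks virus entry, read 10.69, 9.26, 9.80 and 9.37 in the 4 Line-A rats and 12.06, 11.92, 12.23 and 12.35 in the 4 Line-C rats, 5.14-fold lower (adjusted p = 0.00325). *Irf7*, the transcription factor that amplifies the response, read 6.13, 5.68, 6.09 and 5.37 in Line-A against 6.67, 6.92, 7.43 and 7.18 in Line-C (adjusted p = 0.043), and *Ifi27* was lower, with a difference of -0.40 ± 0.09 (adjusted p = 0.0318). *Oas1a*, an antiviral RNA sensor, read 4.61, 4.22, 4.17 and 4.25 in Line-A against 5.34, 6.02, 7.59 and 4.93 in Line-C with an adjusted p of 0.106, and *Mx2* had 1 high rat, Line-C replicate 3 at 8.19, the same rat that was highest for *Oas1a*. For *Ifitm3* the parents lay between the lines, at 10.92 (H/W) and 11.39 (L-E), and for *Irf7* both were near Line-A, at 5.75 (H/W) and 5.57 (L-E). Outside the list *Ly6e* was lower, with a difference of -1.23, *Ifi35* with -1.20 and the chemokine *Ccl6* with -0.98 (adjusted p = 0.00585, 0.0045 and 0.00403). The lysosomal enzymes *Tpp1* and *Ppt1* were lower, with differences of -0.89 and -0.60 (adjusted p = 0.000761 and 0.0255), and *Ctsh*, cathepsin H, was higher by 0.59 (adjusted p = 0.00269). Of 14 class I genes *RT1-N2* was called, and of 9 class II genes none, with 8 of 9 differences negative and a median of -0.25. None of 20 acute-phase genes was called by limma, and 6 had an unadjusted p under 0.05, as had 1 class II gene.

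**Figure D4:**
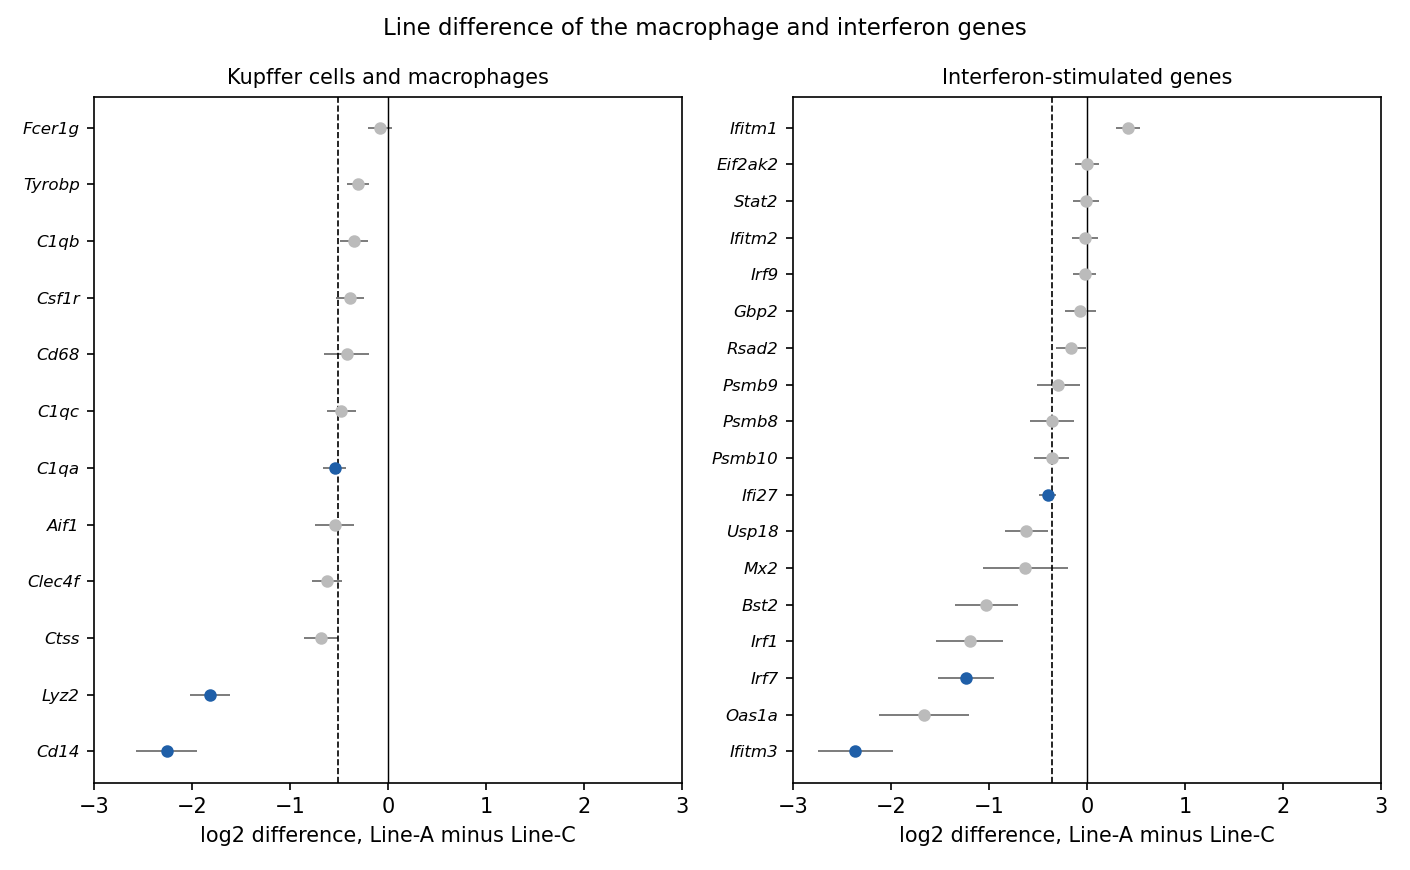
Line-A minus Line-C log2 difference of each expressed Kupffer cell and macrophage marker (12 genes) and interferon-stimulated gene (18 genes), 1 ProbeSet per gene; bars are SE, coloured points passed 5% FDR, and the dashed line is the median of the list. All macrophage markers lie to the left of 0, with *Cd14* and *Lyz2* farthest.

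Genes of drug metabolism were called in both directions. Cytochromes P450 oxidise foreign compounds and steroids, and several in rat liver are set by sex through the pattern of growth hormone release. Of 39 expressed phase I genes, with a median of -0.02, 1 was called higher and 3 lower, as against 1.4% and 1.29% of all expressed genes. *Cyp2c12*, a steroid sulfate hydroxylase that is abundant in females and low in adult males, read 6.53, 9.02, 9.63 and 6.53 in the 4 Line-A rats and 11.12, 12.09, 12.70 and 11.25 in the 4 Line-C rats. It was 14.6-fold lower in Line-A (adjusted p = 0.00176), and the Line-A rats fell into a lower and a higher pair. The parents split in the same direction, with 6.46 (H/W) and 11.13 (L-E), and the line difference against the parents' had an adjusted p of 0.717. Of 11 expressed female-biased genes *Cyp2c12* was the one called. Of 15 male-biased genes *Cyp3a2* was called lower, with 13.56, 13.72, 13.12 and 13.23 in Line-A against 14.14, 13.91, 13.99 and 14.15 in Line-C (adjusted p = 0.00325), and *Hsd11b1*, which regenerates corticosterone from its inactive form, higher, with 13.05, 13.49, 13.53 and 13.61 in Line-A against 12.93, 12.99, 12.67 and 12.83 in Line-C (adjusted p = 0.0222). *Cyp2c6v1* was higher, with 13.97, 13.89, 13.43 and 13.76 in Line-A against 13.10, 12.86, 12.72 and 13.02 in Line-C (adjusted p = 0.000401), and *Cyp2c23*, an arachidonic acid epoxygenase, lower with a difference of -0.53 (adjusted p = 0.0298). These P450 genes have close relatives on the array, and their probes may share signal.

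Of 26 conjugating enzymes *Ugt2b1*, a UDP-glucuronosyltransferase, was higher, with 10.81, 10.80, 10.71 and 11.04 in Line-A against 9.45, 9.27, 8.77 and 10.08 in Line-C (adjusted p = 0.0323), while *Sult1e1*, the estrogen sulfotransferase, and *Gstt2*, a theta-class glutathione transferase, were lower, with differences of -0.43 and -0.87 (adjusted p = 0.00445 and 0.0306). The median of the list was 0.00045, and 1.4% of all expressed genes were called higher and 1.29% lower. No gene of 17 antioxidant response genes, 17 nuclear receptors, 15 genes of the unfolded protein and integrated stress response or 9 clock genes was called by limma, and 5, 3, 2 and 2 had an unadjusted p under 0.05. With 2.7% of all expressed genes called, lists this short can hold no call at that share. In the growth hormone and IGF axis *Igfbp3*, the main IGF carrier of blood, was lower on both ProbeSets, with 8.03, 8.06, 8.14 and 8.51 in Line-A against 8.94, 9.10, 9.25 and 8.70 in Line-C on 1386881_at and differences of -0.81 and -0.99 (adjusted p = 0.00201 and 0.00622). Both parents were at the Line-A level, 8.39 (H/W) and 8.19 (L-E), so here Line-C departed from the rest.

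Among secreted proteins *Spink1*, a trypsin inhibitor, was higher on both ProbeSets that were called, with 8.49, 7.81, 7.93 and 8.83 in Line-A against 6.17, 6.25, 5.19 and 5.20 in Line-C on 1387193_a_at (5.91-fold, adjusted p = 0.000568). *Serpina4*, kallistatin, was higher by 0.30 (adjusted p = 0.00993), and these were the 2 called of 25 protease inhibitors, as against 2.7% of all expressed genes. *Afp*, the fetal counterpart of albumin, read 7.94, 8.22, 8.55 and 8.19 in the 4 Line-A rats and 6.56, 6.73, 6.86 and 5.70 in the 4 Line-C rats, 3.39-fold higher in Line-A (adjusted p = 0.00758), with parents at 7.28 (H/W) and 5.24 (L-E). *Hrg*, a plasma glycoprotein that binds heparin and heme, was higher by 0.52 (adjusted p = 0.00086), and *Mif*, a cytokine with tautomerase activity, read 11.38, 11.82, 11.81 and 11.80 in Line-A against 10.61, 10.61, 10.65 and 10.33 in Line-C (2.22-fold higher, adjusted p = 0.009). Of 12 iron genes *Hfe*, mutated in hemochromatosis, was lower at 7.67 ± 0.14 against 8.41 ± 0.20 (adjusted p = 0.00622). *Isyna1*, the synthase that makes inositol from glucose 6-phosphate, was the one called of 9 genes of inositol metabolism and was lower, with 5.85, 5.28, 5.19 and 5.45 in Line-A against 7.97, 6.89, 6.89 and 7.35 in Line-C (3.57-fold, adjusted p = 0.000111), and *Selenop*, the plasma carrier of selenium, had a difference of -0.54 (adjusted p = 0.049).

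The parents place these differences. Between H/W and L-E 527 ProbeSets were called (3.31%), 456 of them with a mean signal of 4 or more over all arrays. This count turned on 1 array. Without H/W replicate 3 it was 6129, of which 4783 were under that mean, and the median size of the called differences went from 0.64 to 0.0931 on the log2 scale. Without any other 1 of the parental arrays it lay between 347 and 636, lowest without L-E replicate 2. Of the 222 called between the lines, 57 were also called between the parents, which is 25.7% of the line calls and 10.8% of the parent calls. Of these 57, 25 had the sign of H/W minus L-E, so that Line-A lay on the side of H/W, and 32 had the opposite sign. Without H/W replicate 3, 83 were called in both, 35 with the same sign and 48 with opposite signs. The balance turned without H/W replicate 2, with 27 of the same sign and 25 of opposite signs, and was even without L-E replicate 1, at 23 each. *Agtr1a*, *Marveld1*, *Sqor*, *Cyp2c12*, *Bckdhb* and *Afp* belong to the first kind, and *Itga1*, *Creg1* and *Letm1* to the second. For 165 ProbeSets called between the lines and not between the parents, the mean of Line-A lay farther from the mid-parent value in 100 and that of Line-C in 65. *Lyz2*, *Dsc2*, *Idi1* and *Tiparp* were among those in which Line-A lay farther, and *RT1-N2*, *Nfat5*, *Sirt3* and *Igfbp3* among those in which Line-C did. Of these, *Dsc2* and *Sirt3* were called between the parents without H/W replicate 3 (adjusted p = 0.0389 and 0.0227). Both line means lay between the parent means in 10 of the 222. The difference between the lines itself differed from that between the parents in 320 ProbeSets (2.01% of all), 107 of them called between the lines. The parents were scanned on other days than the lines.

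**Figure D5:**
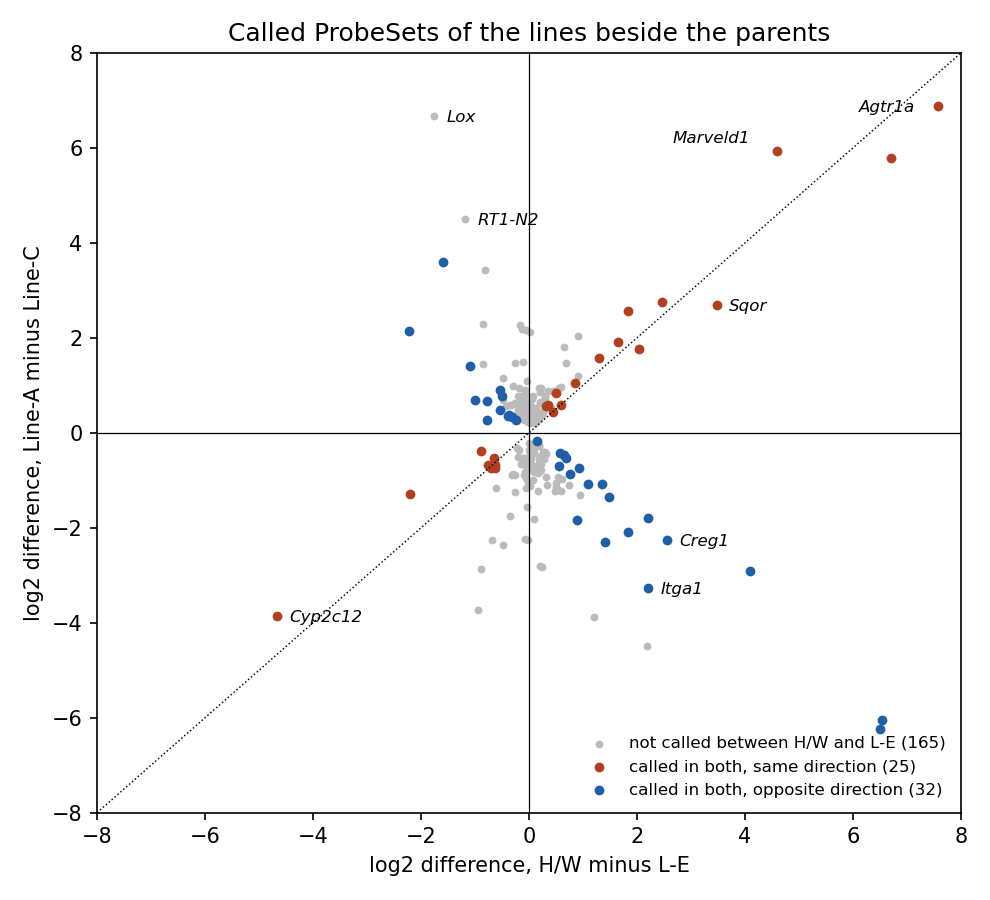
Log2 difference H/W minus L-E (x axis) against Line-A minus Line-C (y axis) for the 222 ProbeSets called between the lines; the dotted line marks equal differences. The 25 ProbeSets called in both with the same sign lie in the upper right and lower left, the 32 with opposite signs in the upper left and lower right, and most of the rest lie near 0 on the x axis.

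Neighbouring genes of the rat genome are given in the order of GRCr8. A gene counted as called where any of its ProbeSets was, with the direction of its largest called difference. Among 5403 expressed genes placed, 154 of them called, 5 of 5382 adjacent pairs had both genes called. Whether 154 genes placed at random would give as many pairs was not tested. By this rule *Psmd5* and *Rab14* differed in the same direction. *Cyb5b* and *Nfat5*, *Mif* and *Gstt2*, and *Abcg5* and *Haao* differed in opposite directions. The last pair was *Selenos* and *Lysmd4*, of which the latter had no single direction. *Abcg8*, the gene next to *Abcg5*, had a mean of 3.80 over the 8 arrays, under the limit, and was not placed, although it was called lower with *Abcg5*. *Psmd5*, a proteasome assembly factor, was higher by 0.62 beside *Rab14*, and *Cyb5b*, the outer mitochondrial cytochrome b5, was lower, with a difference of -0.74 beside *Nfat5* (adjusted p = 0.0401 and 0.0356). The directions of these pairs are not settled. The brightest ProbeSets of *Rab14* and *Nfat5* were not called and measured slightly lower in Line-A, and *Cyb5b* had a ProbeSet, also not called, that measured higher. *Selenos*, a selenoprotein of the endoplasmic reticulum, was lower, with a difference of -0.37 (adjusted p = 0.0335).

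Rats of 1 line also differed among themselves. Over the 7221 expressed ProbeSets the median SD was 0.149 among Line-A rats and 0.150 among Line-C rats, and the SD exceeded 1 for 42 and 31 ProbeSets. In Line-A, replicate 1 was the rat farthest from the other 3 for 23 of those 42. It had the highest *Cyp4a1*, a fatty acid hydroxylase induced through PPAR alpha, at 13.36 against 10.07, 10.11 and 11.18, and the highest metallothionein *Mt2A*, at 10.36 against 7.02 to 7.60, and it was the rat with Line-C levels of *Crot*. *Gadd45g*, a stress-response gene, read 4.44, 7.99, 7.18 and 8.15 in Line-A against 4.40, 3.74, 4.44 and 4.88 in Line-C, low in this rat and in all of Line-C. In Line-C, replicate 4 was lowest for *Sgk1*, a kinase induced by glucocorticoids, at 6.96 against 9.83 to 11.08, and for *Nrep*, at 7.01 against 9.79 to 10.17. *Onecut1*, the hepatocyte factor HNF6, read 8.97, 5.14, 9.30 and 9.22 in Line-A against 4.44, 3.22, 7.02 and 2.85 in Line-C, high in 3 Line-A rats and low in 3 Line-C rats, and its adjusted p was 0.399. *Ssx2ip*, a centrosomal protein, read 6.0, 1.97, 1.82 and 5.86 in Line-A against 6.49, 6.42, 5.64 and 6.33 in Line-C, and *Fabp5*, a fatty acid carrier, 4.63, 7.89, 8.87 and 8.31 in Line-A against 7.42, 7.57, 8.30 and 4.62 in Line-C, both with wide gaps among the rats of a line. *Ythdf2*, a reader of methylated adenosine in mRNA, read 9.51, 9.16, 9.70 and 9.41 in Line-A against 9.23, 5.43, 5.54 and 8.54 in Line-C.

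The 8 arrays had the same scan day, chip lot, operator and scanner settings. The Line-A arrays were scanned before the Line-C arrays on that day, and the fluidics modules came up again in the same order. A first fluidics run for Line-A and a second for Line-C were inferred from this and are not recorded. Scan order, run and line cannot be told apart. Line-A and Line-C arrays with the same replicate number were washed in the same fluidics module. On the 8 line arrays alone module and replicate number thus coincide. That block gave 39 called ProbeSets there (18 higher and 21 lower), and 25 of the 92 called ProbeSets of the genes named kept the call. With the module as a block over all 20 arrays, a fit chosen after seeing the data, 174 ProbeSets were called (91 higher and 83 lower). In this fit over 20 arrays 72 of the 92 kept the call. It was lost for *Tiparp* (adjusted p = 0.0713), *Acat2*, *Ebp*, both *Fasn* ProbeSets, *C1qa*, *Irf7*, *Ifi27*, *Ndufv2*, *Slco1b2*, *Mcee*, *Ppt1*, *Psmd5*, *Cyp2c23*, *Gstt2* and *Selenop*, and for 1 of the ProbeSets of *Spink1*, *Creg1*, *Marveld1* and *Lysmd4*, at adjusted p up to 0.0875. Counts of called genes in the fit over 20 arrays became 2 for cholesterol synthesis, 1 for lipogenesis, 2 for macrophage markers, 1 for interferon-stimulated genes and 2 for the respiratory chain. Array medians lay between 3.54 and 3.69, and the median difference over all expressed ProbeSets was 0.00483. The 3′ minus 5′ signal of the *Gapdh* controls, a measure of RNA integrity, was 0.343 ± 0.119 for Line-A against 0.452 ± 0.0527 in Line-C, and the exact permutation test (two-sided, smallest possible p 0.0286) gave p = 0.114, 0.314 and 0.886 for *Gapdh*, beta-actin and hexokinase, and 0.343, 0.471 and 0.886 after adjustment over the 3. All 16 hepatocyte markers on the array were expressed, so the labelled tissue carried its markers.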

How the data were processed

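Liver RNA of single rats was hybridised to Affymetrix RAE230A arrays, 1 rat per array, and no samples were pooled. Per the labels, the authors normalized the scans with GC-RMA (GCRMA 2.10.0, affy 1.12.0, R 2.6.1), and the deposited values are log2 signals per ProbeSet. GC-RMA shrinks dim probes towards a floor, so small differences near the floor carry little weight. Lot, scan day, scan order and fluidics module came from the experiment-information record deposited with each array, and probe intensities were not used. Sequencing depth does not apply to arrays, and their number, 4 per line, limits the precision.

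All 20 arrays entered 1 model with a mean for each strain or line, fitted with limma 3.58.1 (R 4.3.3), as the study's methods do, and Line-A minus Line-C was tested with empirical Bayes moderation, two-sided, with Benjamini-Hochberg adjustment over 15923 ProbeSets. All adjusted p in the text are of this kind, errors of means are SD and errors of differences are SE. The script was tested on simulated data. Symbols came from the GEO platform annotation, updated through RefSeq where it allowed, and 12789 ProbeSets had 1 symbol, 312 several and 2822 none. Gene lists (39) were matched by symbol, with the brightest ProbeSet standing for a gene. The members and lists were chosen with earlier results of these data known. Genes were named by rule: the 25 largest called differences in each direction, up to 6 called genes of each list, the receptor lists and cell markers, genes named by the study, called neighbours, the 10 largest differences between lines and parents, and the 10 largest spreads in each line; not all of these are described, and other members of a list are given by counts, medians or ranges. *Aadat*, *Acat1*, *Acly*, *Ccl6*, *Ctsh*, *Fitm2*, *Gcgr*, *Hibadh*, *Hrg*, *Mcee*, *Msmo1*, *Oas1a*, *Plin2*, *Ppt1*, *Prdx3*, *Selenop*, *Sqle*, *Tpp1*, *Ugt2b* and the unnamed ProbeSets lie outside this rule and were picked with their values in view. Alternatives changed the threshold, arrays, array weights, variance trend, scaling, filter and batch, or left out 1 array.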

Additional observations from a re-analysis of the deposited data

Results flagged for a closer look

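The Line-A minus Line-C difference differed from the H/W minus L-E difference, by the limma contrast of both, for 43 ProbeSets of the genes named. The parents were scanned on other days than the lines. The values are the line difference minus the parent difference on the log2 scale, with adjusted p between 1.33e-14 and 0.0488. Where the mean of a line or parent lay under the limit of 4, the size rests on signals near the floor and has no order, as for *Abcg8* -2.17, *Agtr1a* (1369291_at) -0.92, *Itga1* -5.48, *Lox* (1368171_at) 8.43, *Lox* (1368172_a_at) 4.24, *Lysmd4* 0.86, *Nfat5* 2.31 and *RT1-N2* 5.70. The other positive values were *Aadat* 0.79, *Apoa2* 0.46, *Cox8a* 0.74, *Eno1* 0.53, *Hrg* 0.60, *Mif* 1.63, *Nqo1* 3.96, *Prdx3* 0.50, *Sirt3* 3.15, *Slco1b2* 0.50, *Thrsp* (1387852_at) 2.43 and *Ugt2b1* 2.30, and the other negative values 1370988_at -12.73, 1389990_at -12.59, *Acat2* -1.70, *Ccl6* -1.59, *Creg1* (1375428_at) -1.85, *Creg1* (1381968_at) -4.82, *Cyb5b* -1.68, *Cyp3a2* -0.83, *Cyp51* -1.01, *Dsc2* -1.98, *Gstt2* -1.63, *Ifi27* -0.66, *Ifi35* -1.73, *Igfbp3* (1367652_at) -1.06, *Igfbp3* (1386881_at) -1.01, *Isyna1* -2.72, *Letm1* -3.93, *Ly6e* -1.83, *Lyz2* -1.92, *Selenop* -0.82, *Selenow* -2.24, *Sqor* -0.79 and *Sult1e1* -0.52. *Nqo1* is the member of this group that was not called between the lines, and its H/W minus L-E difference was -4.01.

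Single rats stood apart from the other 3 of their line in 14 of 256 sets of 4 signals that were tested with Dixon's criterion, where chance gives about 1 in 20. They were Line-A replicate 1 on *Crot* (1387183_at) at 6.79 and *Mif* at 11.38, Line-A replicate 2 on *Onecut1* at 5.14, Line-A replicate 4 on *Ctss* at 7.85, Line-C replicate 1 on *Lox* (1368172_a_at) at 3.46, *Lysmd4* (1372060_at) at 3.01 and *Mt2A* at 9.27, Line-C replicate 3 on *C1qa* at 8.72, *Lox* (1368171_at) at 3.12 and *Mx2* at 8.19 and Line-C replicate 4 on *Idi1* at 10.99, *Mif* at 10.33, *Nrep* at 7.01 and *Tiparp* at 5.06.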

How the results depend on the processing

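Against 222 (120 and 102) ProbeSets called (higher and lower in Line-A), the fit gave 130 (69 and 61) with the 8 line arrays alone, 687 (349 and 338) with array weights, 85 (42 and 43) at 1% FDR and 71 (30 and 41) at 2-fold or more. With 1 line array left out it gave 133 to 234 (66 to 118 higher, 64 to 116 lower), fewest without Line-A replicate 3 (135), Line-C replicate 2 (133) and Line-C replicate 4 (135), and 94 were called in each of the 8 fits. The variance trend, further scalings, filters on low values and scan day as a block kept the count within 1.5 times. With the 8 line arrays alone, 60 of the 92 called ProbeSets of the genes named kept the call and 32 lost it. Among the line arrays the weights were lowest for Line-A replicate 4 (0.187) and Line-C replicate 1 (0.428) and highest for Line-A replicate 2 (3.34). Calls shared with the parents, 57, became 197 with array weights, 26 at 1% FDR, 27 at 2-fold and 19 with each pair fitted alone. Differences from the parents, 320, became 6913, 143 and 159 under the first 3. Calls between the parents, 527, became 6780 with array weights, where H/W replicate 3 had the lowest weight of the parents, and with 1 parental array left out 347 (without L-E replicate 2) to 6129 (without H/W replicate 3), where shared calls were 83 and differences from the parents 390. These parental fits were chosen after seeing the data. The cause was not tested.

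The labels do not say that replicate numbers pair the rats, although same-numbered arrays shared a fluidics module, and deviations of same-numbered rats correlated at 0.012, -0.027, 0.076 and -0.067. With the replicate number as a block, 39 (18 and 21) ProbeSets were called, 34 of them also without it, and 25 of the 92 called ProbeSets of the genes named kept the call. Among list counts it left 1 for cholesterol synthesis, 1 for macrophage markers and 0, 0 and 0 for lipogenesis, interferon-stimulated genes and the respiratory chain. No direction of a called ProbeSet of the genes named was reversed under any alternative. This carries little weight: where the signals of the lines did not overlap, as in 212 of the 222 called, leaving out 1 array could not reverse the direction. With 1 line array left out, the call was lost in at least 1 fit for 39 of 92 such ProbeSets, of *Abcg5*, *Acat2*, *C1qa*, *Creg1*, *Crot*, *Cyb5b*, *Cyp2c23*, *Cyp51*, *Ebp*, *Eno1*, *Fasn*, *Gcgr*, *Gstt2*, *Hibadh*, *Hsd11b1*, *Idi1*, *Ifi27*, *Irf7*, *Lysmd4*, *Marveld1*, *Mcee*, *Ndufv2*, *Plin2*, *Plod1*, *Ppt1*, *Prdx3*, *Psmd5*, *Rab14*, *Sc5d*, *Selenop*, *Selenos*, *Slco1b2*, *Spink1*, *Tiparp*, *Ugt2b1* and *Uqcrq* (for *Creg1*, *Lysmd4*, *Marveld1*, *Rab14* and *Spink1* on 1 of their called ProbeSets). The 3′ minus 5′ difference between the lines ranged from -0.136 to -0.0502 for *Gapdh*, from -0.175 to -0.0509 for beta-actin and from -0.0357 to 0.0237 for hexokinase, which was positive without Line-A replicate 4. Differences of probes not above background carry little weight, also where they were called, and 4 rats per line limit the precision.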

Other observations

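A single gene symbol set both lines apart from both parents. *Ugt2b* had 2 ProbeSets on which each of the 8 line arrays was over 2-fold above each of the 8 parental arrays, and no ProbeSet was over 2-fold below in the same sense. ProbeSet 1387825_at measured 13.52 ± 0.20 against 13.55 ± 0.23 in Line-A and Line-C, and 3.64 ± 0.33 in H/W and 3.66 ± 0.04 in L-E. ProbeSet 1385247_at measured 10.44 ± 0.09 against 10.40 ± 0.19, with 4.41 (H/W) and 4.65 (L-E). The parents were scanned on other days than the lines, the UDP-glucuronosyltransferases of family 2B are close relatives of each other, and the gene was chosen after its values were seen.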
